A study of Mus musculus with 8 samples.

Results

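The small leucine-rich proteoglycans (SLRPs) are secreted proteins built from leucine-rich repeats, most of which carry glycosaminoglycan chains. The 9 genes described here are Lum, Prelp, Fmod, Dcn, Bgn, Ogn, Omd, Kera and Aspn, each taken with every probe that the platform annotation assigns to it. They have 13 probes, out of 16559 genes and 25608 probes on the array: Ogn has 3 probes, Dcn and Fmod have 2 each, and the other genes have 1 each. Of the 9 genes, 7 were detected on at least 2 of the 8 arrays and entered the model fits, and Kera and Aspn did not. A probe was called detected when the deposited detection p-value was under 0.01.

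SLRPs bind to collagen fibrils and control how thick and how regularly spaced the fibrils become. Several of them also hold growth factors such as TGF-beta in the matrix or act on cell surface receptors. Fibroblasts are a main source of decorin, lumican and biglycan in culture and in connective tissue, and in the liver these proteins are known as products of stellate cells and portal fibroblasts rather than of hepatocytes.

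The study measured mouse RNA on Illumina MouseRef-8 v2 bead arrays, with 1 array for each of 8 groups. Dnmt2 (official symbol Trdmt1) and Nsun2 are enzymes that methylate cytosines in transfer RNA, and the groups were wild type, Dnmt2-/-, Nsun2-/- and the double knockout (DKO). Each genotype was measured once in mouse embryonic fibroblasts (MEFs) and once in liver. All mice carried the strain label CBA/C57BL6j x B6;129. The MEFs came from embryos of day 13.5, were immortalized with a plasmid for SV40 large T antigen and were harvested at passage 9, so each MEF group is 1 immortalized culture. The livers came from mice aged 2 months. With 1 array a group, no comparison between 2 groups has a replicate check. Values below are background-corrected, quantile-normalized log2 signals, and the difference between 2 arrays is given in log2 units.

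In the mouse genome the family lies in clusters, and the clusters are shown here because genes that lie side by side could be set against each other in the data. In the RefSeq annotation (GRCm38.p6) no other coding gene separates Dcn from Lum, or Lum from Kera, on chromosome 10. Prelp and Fmod are neighbours on chromosome 1. Aspn, Omd and Ogn follow each other on chromosome 13, which also holds Nsun2, with 215 coding genes between Ogn and Nsun2. Bgn lies on the X chromosome. RefSeq promoter windows were matched for 7 of the 9 genes, and Lum and Dcn had none in the table used. The 250 bases before the annotated start are printed for Prelp and Fmod, neighbours that differed between MEF arrays in the same directions, and for Bgn and Ogn, which showed other patterns. The windows are chr1:133921402-133921651 on the minus strand for Prelp, chr1:134037004-134037253 on the plus strand for Fmod, chrX:73483351-73483600 on the plus strand for Bgn and chr13:49607765-49608014 on the plus strand for Ogn. Each is written 5′ to 3′ on the gene's own strand, with matches to the motifs searched in capitals.
Prelp: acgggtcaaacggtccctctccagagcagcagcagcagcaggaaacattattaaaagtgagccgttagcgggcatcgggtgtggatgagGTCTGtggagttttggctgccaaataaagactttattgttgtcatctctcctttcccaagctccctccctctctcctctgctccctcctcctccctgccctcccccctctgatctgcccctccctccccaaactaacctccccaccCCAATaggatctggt
Fmod: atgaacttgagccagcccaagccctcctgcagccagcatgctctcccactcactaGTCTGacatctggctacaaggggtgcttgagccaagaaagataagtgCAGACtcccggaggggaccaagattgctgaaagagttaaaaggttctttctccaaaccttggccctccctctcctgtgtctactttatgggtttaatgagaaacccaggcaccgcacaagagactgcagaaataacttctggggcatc
Bgn: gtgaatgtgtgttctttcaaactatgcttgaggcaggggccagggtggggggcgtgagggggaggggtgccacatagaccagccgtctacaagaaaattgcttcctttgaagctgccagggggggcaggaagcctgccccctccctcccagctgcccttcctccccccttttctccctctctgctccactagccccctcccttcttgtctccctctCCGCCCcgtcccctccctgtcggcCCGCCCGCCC
Ogn: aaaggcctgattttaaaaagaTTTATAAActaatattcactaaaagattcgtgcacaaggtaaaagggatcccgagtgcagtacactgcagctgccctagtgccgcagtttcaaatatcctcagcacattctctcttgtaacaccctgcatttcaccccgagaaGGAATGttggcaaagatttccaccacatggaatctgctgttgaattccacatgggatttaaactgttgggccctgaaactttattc

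The motifs were searched on both strands as exact letters, and a match is a description of the letters and not of a binding site. CAGAC, the core letters of the SMAD box, was found in the windows of Prelp and Fmod and in no other of the 7, against 42.2% of 32851 windows of all genes. CCAAT was found in Prelp, Kera and Aspn, against 33.8% of all windows. GGGCGG, the Sp1 GC box, was found in Bgn, with 3 matches of which the last 2 overlap, against 32.7%. TATAAA was found in Ogn and Aspn, against 12.4%, and its matches lay between 178 and 229 bases before the start. CATTCC, the TEAD letters, was found in Ogn, against 12.6%. TGANTCA, the AP-1 letters, was found in none of the 7 and in 6.75% of all windows. The Bgn window was the richest in G and C of the 4 printed, at 64.4%, and the Ogn window the poorest, at 42%, with a median of 52.4% over all windows.

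Between 13019 and 13409 probes were detected on the MEF arrays and between 11585 and 11688 on the liver arrays. The DKO MEF array stood somewhat apart: its correlation with the other 3 MEF arrays over all probes was 0.978 to 0.979, against 0.986 to 0.989 among those 3 and 0.990 to 0.993 among the livers. Nsun2 was detected in wild-type and Dnmt2-/- MEFs and in wild-type liver and was not detected in any Nsun2-/- or DKO sample, but it was also not detected on the array labelled Dnmt2-/- liver. No Trdmt1 probe was detected on a wild-type array, and its brightest probe was detected in the Dnmt2-/- and DKO MEFs, so these probes do not check the Dnmt2 labels. The labels do not say where those probes lie relative to the deleted sequence. The Y-linked gene Eif2s3y was detected in the wild-type and Dnmt2-/- MEFs and not in the Nsun2-/- and DKO MEFs, so the MEF cultures differ in this as well as in the named alleles. The X-linked transcript Xist, given with Bgn below, was brighter in the Nsun2-/- and DKO MEFs. Both splits coincide with Nsun2 loss, so within MEFs this difference and Nsun2 loss cannot be told apart. Eif2s3y was detected in all 4 livers. In bulk RNA, fewer cells of a type and less RNA per cell cannot be told apart.

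**Figure D1:**
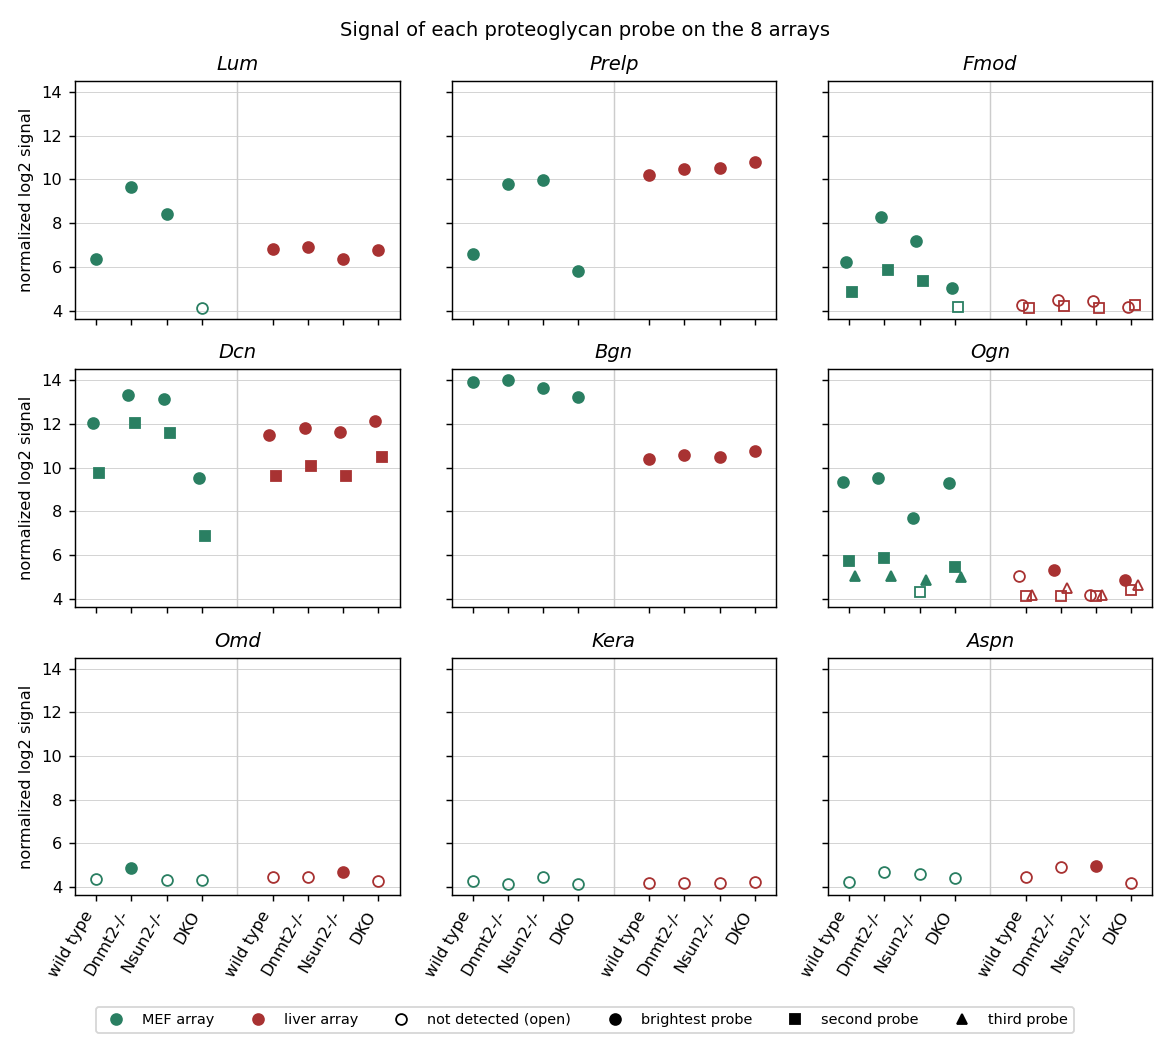
Normalized log2 signal (vertical axis, the same scale in every panel) of every SLRP probe on the 8 arrays, 1 point an array, with MEFs in green on the left and livers in red on the right of each panel. Open symbols were not detected, and squares and triangles are further probes of a gene. Lum, Prelp, Fmod and Dcn are high in both single knockout MEFs and low in DKO MEFs, while the liver points of any 1 probe of these genes span at most 0.87.

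In MEFs, Lum, Prelp, Fmod and Dcn shared one order: each was above wild type in both single knockouts and below wild type in the DKO. Bgn stayed within a range of 0.77 over the 4 MEF arrays, and Ogn was low in the Nsun2-/- culture only. In the 4 livers no SLRP differed 2-fold between any knockout and wild type. Each of these MEF differences is between single cultures and has no test. The model fits tested additive genotype effects with the departure from additivity as the spread, so they do not test these differences, and no additive effect on an SLRP passed at an adjusted p of 0.05.

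Lum encodes lumican, a proteoglycan that limits collagen fibril thickness and is needed for a clear cornea. Its log2 signal was 6.38 in wild-type MEFs, 9.67 in Dnmt2-/- MEFs and 8.41 in Nsun2-/- MEFs, and it was 4.13, not detected, in DKO MEFs. The deposited intensities behind these were 202, 1202, 551 and 91. The single knockouts were therefore the 2 high arrays and the DKO array was at background. Relative to wild type, Lum was 9.80-fold higher in the Dnmt2-/- culture and 4.09-fold higher in the Nsun2-/- culture, and at least 3.94-fold lower in the DKO, where the bound takes the lowest detected signal of that array. With undetected values raised to the lowest detected signal of their array, its MEF range was at least 5.27, and 3 of 9274 genes, Lum among them, had a range that wide. Without background correction the log2 differences of Lum from wild type were 2.43 in Dnmt2-/- and 1.35 in Nsun2-/-, against 3.29 and 2.03 here. In livers its signal was 6.80 in wild type, 6.93 in Dnmt2-/-, 6.38 in Nsun2-/- and 6.78 in the DKO, a range of 0.55 that 34.7% of 8402 genes equalled or exceeded.

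Prelp encodes a proteoglycan with a basic amino-terminal end that binds heparan sulphate and is thought to tie basement membranes to the collagen beneath them. Its MEF signals were 6.59 in wild type, 9.79 in Dnmt2-/-, 9.99 in Nsun2-/- and 5.80 in the DKO, with deposited intensities of 224, 1281, 1329 and 154. It was 9.17-fold higher than wild type in the Dnmt2-/- culture and 10.5-fold higher in the Nsun2-/- culture. The DKO was 1.73-fold below wild type, short of the 2-fold threshold, and 18.2-fold below the Nsun2-/- culture. Prelp was thus high in both single knockouts. Without background correction its log2 differences from wild type were 2.43 in Dnmt2-/- and 2.61 in Nsun2-/-, against 3.20 and 3.39 here. In livers it read 10.19 in wild type, 10.47 in Dnmt2-/-, 10.51 in Nsun2-/- and 10.82 in the DKO, all above every MEF array.

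Fmod, the neighbour of Prelp, encodes fibromodulin, which binds collagen in tendon and other dense connective tissue and carries keratan sulphate. Its brighter probe read 6.22 in wild-type, 8.30 in Dnmt2-/-, 7.18 in Nsun2-/- and 5.05 in DKO MEFs. The Dnmt2-/- culture was 4.23-fold above wild type, the Nsun2-/- culture 1.95-fold above it, just under the threshold, and the DKO 2.25-fold below it. The second Fmod probe gave the same order at lower signals, with 4.87, 5.86 and 5.37 in wild-type, Dnmt2-/- and Nsun2-/- MEFs and 4.18, not detected, in the DKO. Neither Fmod probe was detected in any liver.

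Dcn, the neighbour of Lum, encodes decorin, which binds collagen fibrils and TGF-beta and antagonizes receptor tyrosine kinases such as EGFR and Met. Its brighter probe read 12.06 in wild-type, 13.31 in Dnmt2-/-, 13.16 in Nsun2-/- and 9.55 in DKO MEFs, with deposited intensities of 4686, 10168, 9100 and 1047. The DKO array was the one low array, 5.69-fold below wild type and 13.5-fold below Dnmt2-/-. The single knockouts were 2.37-fold and 2.14-fold above wild type. The second Dcn probe gave wider differences in the same directions: 9.78 in wild type, 12.03 in Dnmt2-/-, 11.60 in Nsun2-/- and 6.89 in the DKO. In livers the brighter probe read 11.50, 11.82, 11.64 and 12.14 in wild type, Dnmt2-/-, Nsun2-/- and DKO, so the DKO was the lowest of the MEF arrays and the highest of the liver arrays.

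Bgn encodes biglycan, the closest relative of decorin, which binds collagen and, when released, the innate immune receptors TLR2 and TLR4. Its MEF signals were 13.91 in wild type, 14.01 in Dnmt2-/-, 13.66 in Nsun2-/- and 13.24 in the DKO, and 23.2% of genes had a MEF range at least as wide. The DKO was again the lowest, at 1.59-fold below wild type. Its liver signals were 10.39, 10.56, 10.47 and 10.75 in the same order of genotypes. Bgn is X-linked, and the X-linked transcript Xist read 5.90 and 6.07 in the Nsun2-/- and DKO MEFs, against 4.47, not detected, and 4.58 in wild-type and Dnmt2-/- MEFs. The part of this in the Bgn values was not tested.

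Ogn encodes osteoglycin, also called mimecan, a proteoglycan of bone and vessel walls that regulates collagen fibril assembly. Its brightest probe read 9.36 in wild-type, 9.53 in Dnmt2-/-, 7.71 in Nsun2-/- and 9.29 in DKO MEFs. The Nsun2-/- culture was the one low array, 3.14-fold below wild type, and the DKO, which also lacks Nsun2, was 1.05-fold below wild type. A second probe showed the same low array, at 5.72, 5.89, 4.30 (not detected) and 5.46 in the same order of genotypes. The remaining probe, close to background throughout, read 5.06, 5.03, 4.85 and 5.02 and differed by at most 1.16-fold from wild type. In livers the brightest probe was detected in Dnmt2-/- at 5.33 and in the DKO at 4.84, and was not detected in wild type or Nsun2-/-.

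The other 3 genes were at or near background. Omd encodes osteomodulin, which binds bone mineral and collagen, and it was detected in Dnmt2-/- MEFs at 4.85 and Nsun2-/- liver at 4.71 only. Aspn encodes asporin, which binds collagen and TGF-beta, and it was detected in Nsun2-/- liver alone at 4.96. Kera encodes keratocan, a proteoglycan of the corneal stroma, and it was detected on none of the 8 arrays, with signals between 4.13 and 4.48. Kera stayed at background on every array although its neighbour Lum varied.

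In Dnmt2-/- against wild-type MEFs, 4 of 7 measured SLRPs were at least 2-fold higher and none was lower, where 2.73% of 9742 genes were higher and 0.893% lower. The median difference of the 7 was 1.25, against -0.04 for all genes. In Nsun2-/- against wild-type MEFs, Lum, Prelp and Dcn were higher and Ogn was lower, of 6 measured, where 1.94% of 9677 genes were higher and 0.682% lower. The median of the 6 was 1.03. In DKO against wild-type MEFs, Lum, Fmod and Dcn were lower and none was higher, of 6 measured, where 2.82% of 9683 genes were lower and 4% higher, and the median was -0.98. These 3 comparisons share the wild-type array. The count of 3 in the DKO rests on the background correction, since with uncorrected signals, and likewise with the authors' deposited normalized values, only Dcn passed 2-fold.

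Against the single knockouts the DKO was lower still. It was at least 2-fold below Nsun2-/- MEFs for Lum, Prelp, Fmod and Dcn and above them for Ogn, where 3.3% of 9731 genes were lower and 3.32% higher. It was at least 2-fold below Dnmt2-/- MEFs for the same 4 genes of 7 measured, where 3.68% of 9835 genes were lower and 2.61% higher. Lum against Dnmt2-/- was at -5.27 or below, and this bound depends on the background correction, since it was at -3.16 without it and at -3.17 with the authors' deposited values.

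**Figure D2:**
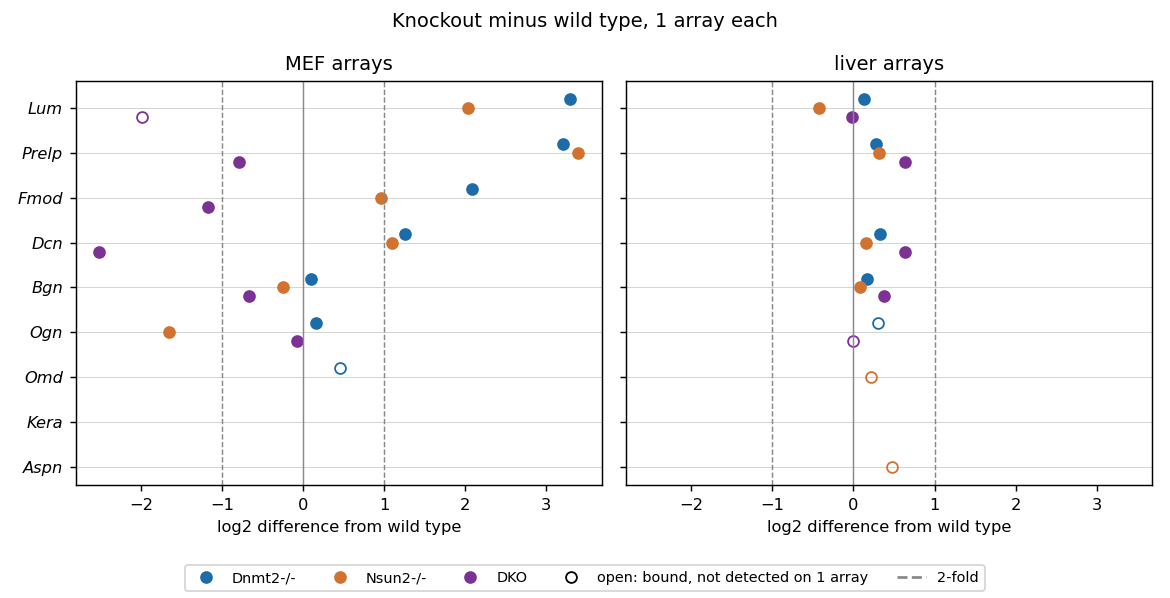
Log2 difference of each knockout from wild type (horizontal axis) for each SLRP, in MEFs on the left and livers on the right, 1 array against 1. Open points are bounds where a gene was not detected on 1 of the 2 arrays, dashed lines mark 2-fold, and genes detected on neither array have no point. In MEFs Lum, Prelp, Fmod and Dcn lie right of 0 in both single knockouts and left of 0 in the DKO, while all liver points lie between the 2-fold lines.

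The order with both single knockouts above wild type and the DKO below it was shown by 4 of 6 SLRPs detected on at least 2 of the 4 MEF arrays, and by 9.66% of 9274 genes. This order was chosen after the values were seen, so it is described here and not tested. The departure from additivity gives its size: the DKO minus both single knockouts plus wild type, which is 0 if the log2 effects add. It was -7.38 for Prelp, -7.30 or below for Lum, -4.85 for Dcn and -4.21 for Fmod. It was -0.52 for Bgn and 1.41 for Ogn, the one SLRP with a positive value. Counted from the most negative of 9274 genes, Dcn ranked 11 and Fmod 22. Prelp and Lum took ranks 2 and 3 with Lum at its bound, so their order is not known. Lum could also be more negative than Mmp3, which held rank 1 at -7.92. Of all genes, 1.74% were at -2 or below. The median was -4.53 over the 6 SLRPs and 0.06 over all genes. In livers the same quantity was 0.27 for Lum, 0.03 for Prelp, 0.17 for Dcn, 0.11 for Bgn and 0.01 for Ogn, and 0.405% of 8402 genes were at -2 or below. This measure was added after the data were seen. The DKO array, which stood apart from the other MEF arrays over all genes, enters every one of these MEF values, and the part of that in them was not tested.

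**Figure D3:**
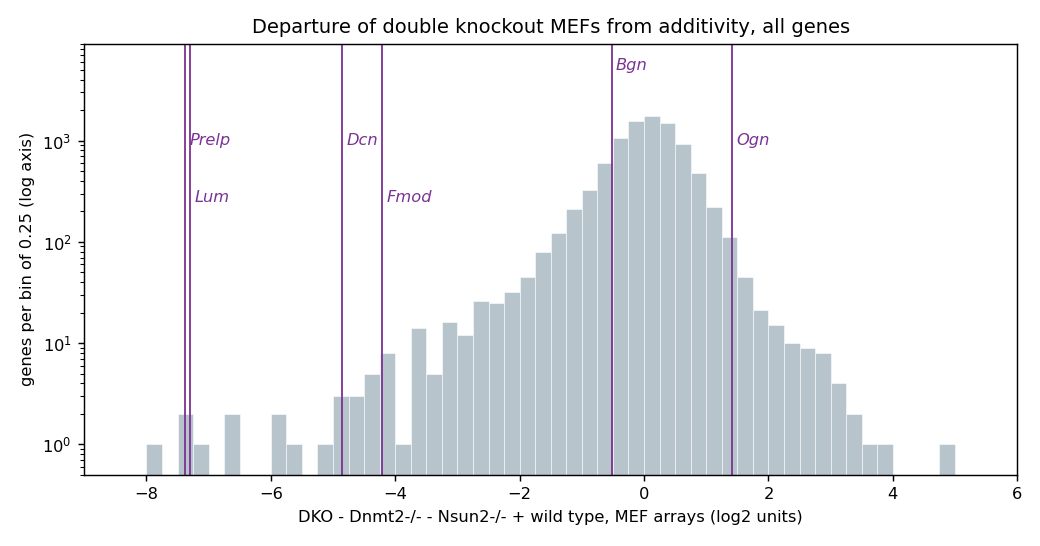
Departure of DKO MEFs from additivity (horizontal axis, log2 units) over 9274 genes, as genes per bin of 0.25 on a log axis, with vertical lines at the 6 SLRPs detected on at least 2 MEF arrays. Most genes lie near 0, Prelp, Lum, Dcn and Fmod lie in the far negative tail, Bgn lies at -0.52 and Ogn at 1.41.

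The departure was also tested over both sample types together, with limma's moderated test on 3 residual degrees of freedom. The estimate averages MEFs and livers, and the spread is the disagreement of genotype effects between them. A departure seen in MEFs only widens that spread, so this fit does not test the MEF departure by itself. The estimates were -3.67 ± 1.45 (SE) for Prelp, -3.65 ± 1.60 for Lum, -2.38 ± 0.83 for Fmod and -2.34 ± 1.28 for Dcn, over 8 arrays. None passed after Benjamini-Hochberg adjustment by limma, with an adjusted p of 0.955 for each of the 4. No gene of 10491 passed, with 404 at an unadjusted p under 0.05, among them Prelp, Fmod and Ogn.

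In livers, 0 SLRPs of 5 to 7 measured differed 2-fold in any of 5 comparisons, where 2.36% of genes differed 2-fold either way in Dnmt2-/-, 2.89% in Nsun2-/- and 3.1% in the DKO against wild type, and 2.84% and 3.78% in the DKO against Nsun2-/- and Dnmt2-/-. Prelp and the brighter Dcn probe were each 1.56-fold higher in DKO than in wild-type liver. The second Dcn probe read 9.60 in wild type, 10.09 in Dnmt2-/-, 9.61 in Nsun2-/- and 10.48 in the DKO, which made it 1.83-fold higher there. Bgn was 1.29-fold higher there and Lum 1.02-fold lower. The DKO was the highest of the 4 livers for Prelp, Dcn and Bgn, 3 of the 4 SLRPs detected on all livers, and this was so for 27.5% of 7038 genes. That rule was also chosen after the values were seen.

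The limma fits of each knockout effect used all 8 arrays, with the departure of arrays from additive genotype effects as the spread. Of 7 SLRPs, 0 passed for loss of Dnmt2 or loss of Nsun2 over both sample types, within MEFs, within livers, or for the difference between sample types, and 0 of 10491 genes passed in each of these 8 tests. Between 419 and 677 genes had an unadjusted p under 0.05. For Ogn, loss of Nsun2 over both sample types gave -0.81 (95% interval -1.34 to -0.27), with an adjusted p of 0.965 by limma and an unadjusted p of 0.00838. For Lum, loss of Nsun2 within MEFs gave -1.75 with an interval from -6.06 to 2.55, so effects of either sign and of several log2 units lie within the error for Lum.

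MEFs and livers were compared as 4 arrays against 4 with genotype as a covariate. The spread in this fit is how far the MEF and liver difference varies between genotypes, on 3 residual degrees of freedom. It is not a spread between replicates of a group. Bgn, Ogn and Fmod were higher in MEFs, Prelp was higher in livers, and Lum, Dcn and Omd did not pass. Of all 10491 genes, 38% were higher and 28.3% lower in MEFs by the same limma test, so 4 of 7 SLRPs passing is close to the 66.3% of all genes that did. Bgn was 8.96-fold higher in MEFs, a difference of 3.16 ± 0.20 (SE), with an adjusted p of 6.17e-06 in the limma fit over 8 arrays. Its 4 MEF signals, from 13.24 to 14.01, lay above its 4 liver signals, from 10.39 to 10.75. Ogn was higher by 4.13 ± 0.18 with an adjusted p of 9.58e-07 by limma, although 2 of its 4 liver values were not detected. The MEF and liver values of Ogn did not overlap, as for Bgn above and Prelp below. The share of all genes without such overlap was not counted, so this does not set these genes apart.

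Fmod, not detected in any liver, was at least 4.55-fold higher in MEFs when liver values were raised to the lowest detected signal of their array. The limma fit used the undetected liver values as measured and gave 5.09-fold, with an adjusted p of 0.00169. Prelp was 5.47-fold lower in MEFs, a difference of -2.45 ± 0.73 (SE), with an adjusted p of 0.0194 by limma. The 4 liver signals of Prelp lay between 10.19 and 10.82 and its MEF signals between 5.80 and 9.99, so the groups did not overlap, but the gap to the single knockout MEFs was small. The Prelp call was lost without the wild-type arrays (adjusted p = 0.0781 by limma) and without the DKO arrays (adjusted p = 0.0527). Lum differed by 0.43 with an interval from -1.46 to 2.31, and Dcn by 0.24 with an interval from -1.26 to 1.74, since the MEF values of both spread widely around the liver values. Without the DKO arrays Dcn was higher in MEFs by 1.19 (adjusted p = 0.00429 by limma).

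Quantile normalization over both sample types left the median gene 0.14 higher in MEFs, and scaling by the median left it 0.51 higher. With that scaling 71.7% of called genes were higher in MEFs, against 57.3% here.

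**Figure D4:**
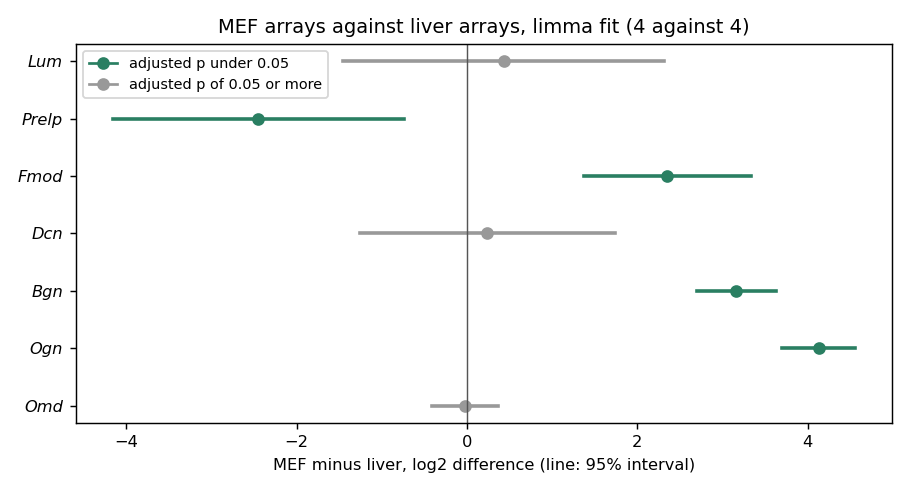
MEF minus liver log2 difference (horizontal axis) of the 7 SLRPs in the limma fit, 4 arrays against 4, with 95% intervals as lines and green for an adjusted p under 0.05. Ogn, Bgn and Fmod lie right of 0 and Prelp left of it, and the intervals of Lum and Dcn are wide and span 0.

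The cell types in the samples were checked with marker genes. Of 16 fibroblast markers on the array, 14 were detected in each of the wild-type and single knockout MEFs and 12 in the DKO. Their summed linear signal was 27546 in wild-type, 34589 in Dnmt2-/-, 29998 in Nsun2-/- and 20096 in DKO MEFs, and 1015 to 1070 in livers. The DKO was thus the lowest of the MEFs here, as it was for Lum, Prelp, Fmod, Dcn and Bgn. In the DKO against wild type, 4 of 14 fibroblast markers were at least 2-fold lower and none higher: the surface protein Thy1 by 20.7-fold, the matrix protein Fbln2 by 10.4-fold, the collagen Col3a1 by 2.77-fold and the transcription factor Twist1 by 2.15-fold. The median over the 14 was -0.60. In the single knockouts 1 of 14 was higher and none lower, with medians of 0.37 in Dnmt2-/- and -0.04 in Nsun2-/-. The part of these markers in the SLRP values was not tested.

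Markers of hepatocytes, macrophages and endothelium were few in the MEFs. Of 14 hepatocyte markers, 2 to 4 were detected in MEFs and 12 or 13 in livers, and Alb, which encodes albumin, was not detected in any MEF culture. Of 12 macrophage markers, at most 2 were detected in a MEF culture. Of 10 endothelial markers, at most 3 were. Of 7 tenocyte markers, Kera among them, 4 were detected in each MEF culture, and Scx, a tendon transcription factor, was 3.01-fold higher in DKO than in wild-type MEFs. Of 13 chondrocyte markers, 1 to 4 were detected in a MEF culture, and Sox9, which directs cartilage fate, was 2.30-fold lower in Nsun2-/- than in wild-type MEFs, where Ogn was also low. Of 9 osteoblast markers, 3 or 4 were detected and none differed 2-fold from wild type. Of 11 smooth muscle markers, 8 were detected in every MEF culture, and their summed signal was 20921, 21331, 16856 and 23309 in wild type, Dnmt2-/-, Nsun2-/- and DKO, so the DKO was the highest there and Nsun2-/- the lowest. The 1 gene of that list that differed 2-fold from wild type was Actg2, a smooth muscle actin, 6.10-fold higher in Nsun2-/-. The summed signal of 11 portal fibroblast and mesothelial markers was 6396, 7954, 6436 and 864 in the same order, with 6 to 8 detected. Thy1 and Fbln2 belong to this list too and weigh heavily in its sum. They read 11.59 and 11.22 in wild-type MEFs and 7.22 and 7.85 in DKO MEFs. Of 7 markers of this list measured in DKO against wild-type MEFs, 3 were 2-fold lower and 3 were above 0. Of 14 stellate cell markers, 6 or 7 were detected in a MEF culture, with sums of 1887, 2618, 2909 and 1692. The sum was thus higher in the single knockouts and lowest in the DKO, but the single markers did not share this order. Their median difference from wild type was 0.27 in Dnmt2-/-, 0.15 in Nsun2-/- and 0 in the DKO, and none was 2-fold lower. Lrat and Reln, which mark stellate cells, were not detected in any MEF culture, and Cygb of the same list was 3.87-fold higher in Nsun2-/- and 2.16-fold higher in DKO than in wild-type MEFs. The part of these in the SLRP values was not tested.

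In livers, markers of the cells that are known to make SLRPs were followed in the same way. The stellate cell sum was 2501 in wild-type, 2820 in Dnmt2-/-, 2378 in Nsun2-/- and 2892 in DKO liver, the DKO being the highest as it was for Prelp, Dcn and Bgn. Rgs5, listed for both stellate cells and pericytes, was 5.88-fold higher in DKO than in wild-type liver. It was the 1 stellate marker of 10 measured in that comparison to differ 2-fold, and their median was 0.40. Rgs5 was also 3.25-fold higher in Nsun2-/- liver, where the stellate sum was the lowest. The portal fibroblast sum lay between 533 and 599, the endothelial sum between 4774 and 5087, and the macrophage sum at 3743, 3794, 4050 and 5226 in wild type, Dnmt2-/-, Nsun2-/- and DKO. The part of these in the liver values was not tested.

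The genes that work with SLRPs were followed in the MEF comparisons with wild type, given as Dnmt2-/-, Nsun2-/- and DKO in that order. Other SLRP family genes were near background: of 7 on the array, 1 or 2 were measured in a comparison and none differed 2-fold, and Podnl1, a podocan relative, read 5.36 in wild-type and 5.62, 4.97 and 5.58 in the knockout MEFs. Epyc and Optc, the neighbours of Kera and Prelp, were detected on no array.

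Fibrillar collagens, whose fibrils SLRPs coat, had 1 of 13 higher, 0 of 12 different and 1 of 10 lower, with medians of 0.21, -0.15 and -0.12. The gene that differed was Col3a1, 2.10-fold higher in Dnmt2-/- and 2.77-fold lower in the DKO. Collagen assembly enzymes had 0 of 15, 0 of 14 and 1 of 14 different, the last being the crosslinking enzyme Lox, lower by 1.33. Col3a1 read 8.42 in wild-type and 8.45 in Nsun2-/- MEFs, so it was higher in 1 of the 2 single knockouts only, and no gene of either list passed 2-fold in all 3 comparisons.

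Of other matrix proteoglycans, 0 of 18 differed in Dnmt2-/-. In Nsun2-/-, 1 of 17 was higher, the glypican Gpc3 by 1.75. In the DKO, 2 of 16 were higher and 2 lower: the glypican Gpc1 by 1.72 and the syndecan Sdc2 by 1.39 were higher, and Gpc3 and Sdc1 were lower, at -1.40 and -1.30. The enzymes that build glycosaminoglycan chains had 1 of 22 higher in Dnmt2-/-, the sulphotransferase Chst7 by 1.98, and 1 of 22 higher in Nsun2-/-, Csgalnact1, which starts chondroitin chains, by 1.30. In the DKO 3 of 22 were higher, the sulphotransferases Chst1, Chst15 and Chst2 by 2.24, 2.11 and 1.60, and Csgalnact1 was lower, at -1.91 or below. The medians of this list were -0.04, -0.14 and -0.07.

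Among TGF-beta family ligands and receptors, 1 of 15 was higher in Dnmt2-/-, the ligand Bmp4 by 2.89, and 0 of 15 differed in Nsun2-/-. In the DKO 4 of 15 were higher: the co-receptor Eng by 3.51, Bmp4 by 2.51, the receptor Tgfbr2 by 1.31 and the latency protein Ltbp1 by 1.25. TGF-beta target genes had 0 of 15 different in Dnmt2-/-, with a median of 0.20. In Nsun2-/- Tgfbi was higher by 1.09 and Id2 and Id1 were lower, at -1.31 and -1.24. In the DKO 3 of 15 were lower, Ccn2 at -2.60, Id2 at -1.35 and Id1 at -1.06, with a median of -0.38.

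Among receptors and binding partners of SLRPs, the complement gene C4b and the innate receptor Tlr2 were higher in Dnmt2-/- by 2.51 and 1.46, 2 of 13. The lipopolysaccharide co-receptor Cd14 was higher in Nsun2-/- by 1.63, 1 of 15, and 0 of 13 differed in the DKO. Of 10 proteases that cleave SLRPs, Mmp3 (stromelysin) and Mmp2 were higher in Dnmt2-/- by 3.95 and 1.10. Mmp3 and Mmp13 were higher in Nsun2-/- by 2.73 and 2.12. In the DKO Mmp9 was higher by 3.27, and Mmp13 and Mmp3 were lower, at -1.36 and -1.24. Mmp3 therefore showed the same order over the 4 MEF cultures as Lum, Prelp, Fmod and Dcn. Its departure from additivity, -7.92, was the most negative of the 9274 genes with Lum taken at its bound.

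The genes whose 3 knockout minus wild-type differences in MEFs lay closest to each SLRP were taken from 1244 genes with a MEF range of at least 1, with the root-mean-square distance in log2 units as the measure and undetected values at the lowest detected signal of their array, as for Lum in the DKO. For Lum they were Mmp3 (0.70), Dio3 (0.90) and Rarres2 (1.00), and for Prelp Lcn2 (0.51), Mmp3 (0.63) and Plac8 (0.71). For Fmod they were Svep1 (0.39), Dio3 (0.41) and Tnfsf13b (0.45), and for Dcn Cyp7b1 (0.34), Igfbp3 (0.42) and Rasl11a (0.45). Mmp3 was shared by Lum and Prelp, and Dio3 by Lum and Fmod. For Bgn they were Col1a1 (0.12), Pcnx4 (0.13) and Med6 (0.17), and for Ogn Myl4 (0.43), Irx5 (0.43) and Cuedc1 (0.47). Bgn itself had a MEF range of 0.77, under the limit for candidates, so genes with a range like its own were left out. Each distance rests on 4 arrays that share 1 wild-type array.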

How the data were processed

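RNA of 8 samples was hybridized to Illumina MouseRef-8 v2 arrays, 1 array for each of 8 groups. Per the file headers, the deposited tables hold an intensity for each probe before normalization and a detection p-value from the authors' scanner software, and a second deposited table holds the authors' normalized intensity, with its method not stated in the headers or labels. The non-normalized intensities were background-corrected with limma's nec (normexp fitted from the detection p-values, offset 16), log2-transformed and quantile-normalized over 8 arrays (limma 3.58.1, R 4.3.3). The authors' normalized values ranked the probes nearly identically (rank correlation 0.9993 to 0.9999) and were an alternative.

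Of 25608 probes, 23898 had 1 gene symbol in the platform annotation, 1710 had none and 0 had several, and 23882 had an Entrez ID in the RefSeq table. For a gene with several probes the one with the highest mean signal was used, and other probes of SLRPs are given separately. For 2 arrays, a gene detected on at least 1 was counted when it differed 2-fold, and an undetected value was raised to the lowest detected signal of its array, which makes the fold a bound. limma fits with eBayes used 10491 genes detected on at least 2 arrays, with Benjamini-Hochberg adjustment over all of them and a threshold of 0.05. The scripts were tested on simulated data.

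The SLRP genes, the gene lists and the marker lists were chosen with earlier results of these data known. All 9 SLRPs are named. A gene of a pathway list is named when it differed 2-fold from wild type in MEFs, at most 4 a list and comparison, and the genes of nearest pattern are the 3 closest to each SLRP detected on 2 MEF arrays. Marker genes, Mmp3's rank, Podnl1, Epyc, Optc and the array checks (Nsun2, Trdmt1, Eif2s3y, Xist) were named outside that rule, after values were seen. Precision is limited by having 8 arrays in all. The alternatives were background correction, normalization, detection filter, fold threshold, probe choice and leaving out each array. Probe sequences were not used here.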

Additional observations from a re-analysis of the deposited data

Results flagged for a closer look

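For Lum, Prelp and Dcn, 7 comparisons were at least 2-fold in MEFs and had the opposite sign in livers, with 1 array a group on each side. These differences between sample types were not tested. Lum was higher by 2.03 in Nsun2-/- than in wild-type MEFs and at -0.42 in livers. Dcn in the DKO against wild type was at -2.51 in MEFs and 0.64 in livers. In the DKO against Nsun2-/-, Lum was at -4.01 or below in MEFs and 0.40 in livers, Prelp at -4.18 and 0.32, and Dcn at -3.61 and 0.49. In the DKO against Dnmt2-/-, Prelp was at -3.99 and 0.35, and Dcn at -3.75 and 0.31. Other comparisons of these genes at least 2-fold in MEFs had the same sign in livers. In Dnmt2-/- against wild type, Lum was at 3.29 and 0.13, Prelp at 3.20 and 0.28, and Dcn at 1.25 and 0.33. In Nsun2-/-, Prelp was at 3.39 and 0.32, and Dcn at 1.10 and 0.15. Lum in the DKO was at -1.98 or below and -0.02 against wild type, and at -5.27 or below and -0.15 against Dnmt2-/-. The share of all genes with opposite signs was not counted. The comparisons share arrays, and each liver difference was under 2-fold.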

How the results depend on the processing

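No paired analysis was possible by replicate number because that number is 1 on every array; the MEF and liver comparison was instead matched by genotype, as a covariate. Each count of SLRPs was repeated under alternative settings, and 243 of these repeats stayed within 1.5 times of the value reported and 4 did not. Many of the counts were 0 as reported, among them those of all liver comparisons and all genotype fits. The 243 therefore say little about how stable the other counts are. The DKO against wild-type MEF count of 3 became 1 without background correction, 1 with the authors' deposited values and 5 at a 1.5-fold threshold, and the liver count of 0 for the same comparison became 2 at 1.5-fold. Without background correction Lum and Fmod were at -0.72 and -0.47 in that MEF comparison, and Fmod was at -0.71 with an offset of 50. The cause was not tested. In Nsun2-/- MEFs, Fmod reached 1.00 with quantile normalization within each sample type, and Dcn was at 0.95 with median scaling. The departure from additivity was at -2 or below for Lum, Prelp, Fmod and Dcn, of 6 or 7 SLRPs measured, in all 8 settings tried, where 0.776% to 1.87% of genes were. It was smaller without background correction, at -5.42 for Prelp, -4.51 for Lum and -2.36 for Fmod, while Dcn was at -4.70. In Dnmt2-/- MEFs Fmod was at 1.35 without it.

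In the comparison of MEFs with livers, leaving out a MEF array gave the same estimate as leaving out the liver array of that genotype. Lum turned to -0.35 without Dnmt2-/- and -0.11 without Nsun2-/- arrays, and Dcn to -0.17 and -0.18, while Dcn without the DKO arrays was at 1.19. Omd, near background, was at 0.17 without normalization, 0.00 without wild type, 0.11 without Nsun2-/- and -0.15 without Dnmt2-/-. Prelp missed the threshold without normalization (-1.74, adjusted p 0.05) and with no detection filter (adjusted p 0.0705, limma). Without normalization 79.4% of called genes were higher in MEFs and the median gene was 0.77 higher. Counts over all genes at 2-fold fell without background correction, from 353 to 131 in Dnmt2-/-, 254 to 95 in Nsun2-/- and 660 to 254 in DKO MEFs. In Nsun2-/- MEFs the split of 188 higher and 66 lower became 191 and 122 with median scaling. In livers the 2-fold counts fell from 211 to 32, 259 to 44 and 278 to 53. No gene passed the genotype fits as reported. Within MEFs 5 genes passed for Dnmt2 loss with median scaling and 5 without normalization, and within livers 2 passed for Nsun2 loss with every probe kept, none of them an SLRP.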
